A study of Mus musculus with 6 samples.

Results

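The 7 mouse genes described here are red blood cell genes: the adult alpha globin genes Hba-a1 and Hba-a2, the adult beta globin genes Hbb-bs and Hbb-bt, the haem synthesis gene Alas2, the anion exchanger gene Slc4a1 and the enzyme gene Bpgm. They were chosen by name, as 7 of the 55536 named rows of a mouse count table, to be read library by library as a sign of blood content. The table comes from tumours that DU145 cells, an established human prostate cancer line, formed under the skin of male nude mice, which lack a normal thymus. There were 3 control tumours (libraries NC10, NC4 and NC9) and 3 tumours of mice labelled as treated with Zelnorm by mouth each day (MBZ_254, MBZ_257 and MBZ_259). Zelnorm is a brand name of tegaserod, a drug that activates HTR4, a receptor for serotonin. The titles of the treated samples carry MBZ, an abbreviation the labels do not explain, and the labels give neither the dose nor the age of the mice. Each library was counted in a mouse table, which holds the host's RNA, and a human table, which holds that of the tumour cells. Nothing in the labels names the animals, so p-values measure the spread between these samples.

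Haemoglobin, the oxygen carrier of red cells, joins alpha and beta globin chains to haem, the iron-containing pigment. Mammalian red cells lose their nucleus before or as they enter the blood, and young red cells, called reticulocytes, keep globin RNA for a time. Alas2 encodes the erythroid form of the enzyme that starts haem synthesis. Slc4a1 encodes band 3, the chloride and bicarbonate exchanger of the red cell membrane, and Bpgm the enzyme that makes 2,3-bisphosphoglycerate, which lowers the oxygen affinity of haemoglobin. BPGM protein is best known from red cells, but many other cell types carry its RNA.

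Named genes held 5798713 to 9185239 counts per library in the mouse table and 24495337 to 39102731 in the human table. The count filter left 14459 mouse genes, 6 of the 7 red cell genes among them. The exception was Slc4a1. Levels are in CPM, counts per 1000000 counts of the tested genes of a library after TMM scaling, within the mouse table unless said otherwise. The libraries did not have the same tissue content. The summed level of 12 skeletal muscle genes ran from 72.0 CPM (MBZ_254) to 7395 CPM (MBZ_259).

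The globin genes of each pair have near-identical coding sequences, which hold little to tell the copies apart. Transcript parts outside the coding sequence were not compared. The whole transcripts are 699 and 554 bases long for Hba-a1 and Hba-a2, and 628 and 703 for Hbb-bs and Hbb-bt. The coding sequences of Hba-a1 and Hba-a2 are 429 bases long and differ at 1 base, and those of Hbb-bs and Hbb-bt are 444 bases long and also differ at 1 base. The stretches of 60 coding bases that hold the difference are shown 5′ to 3′ from the GENCODE vM21 transcripts (GRCm38), in lower case with the differing base in capitals. Those of the alpha pair span coding bases 351 to 410 and those of the beta pair 385 to 444, counted from the A of the start codon.
Hba-a1: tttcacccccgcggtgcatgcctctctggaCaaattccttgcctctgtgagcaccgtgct
Hba-a2: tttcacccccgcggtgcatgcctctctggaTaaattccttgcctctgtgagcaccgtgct
Hbb-bs: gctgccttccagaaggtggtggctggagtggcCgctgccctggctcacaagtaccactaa
Hbb-bt: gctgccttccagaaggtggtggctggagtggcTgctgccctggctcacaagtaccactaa
The longest run without a difference is 380 coding bases in the alpha pair and 416 in the beta pair. The deposited counts of each of these 4 genes were not whole in any of the 6 libraries. Summed over a pair they were whole, within 0.005 of a count, in 6 of 6 libraries for both pairs. The sum of a pair is therefore a count of reads, whereas its division between the copies is an estimate and uncertain.

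Both globin pairs were present in every tumour, and the control NC4 held several times more of them than any other library. Hba-a1 (ENSMUSG00000069919, chromosome 11 from 32283511 to 32284465, plus strand, GRCm38) was at 71.0 CPM in NC10, 329 in NC4 and 92.9 in NC9, and at 78.3 in MBZ_254, 59.9 in MBZ_257 and 81.9 in MBZ_259. The groups overlapped, since NC10 lay below MBZ_254 and MBZ_259. Hba-a2 (ENSMUSG00000069917, chromosome 11 from 32296489 to 32297298, plus strand) was at 99.9, 690.5 and 190.3 CPM in the controls and at 141, 106 and 131 CPM in the Zelnorm tumours, in the same order. NC4 was again the highest library, and NC10 was the lowest, whereas Hba-a1 was lowest in MBZ_257. In bulk tissue, fewer red cells and less RNA per red cell cannot be told apart.

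The beta genes followed the same order of libraries at the top. Hbb-bs (ENSMUSG00000052305, chromosome 7 from 103826534 to 103828096, minus strand) was at 156, 662 and 223 CPM in NC10, NC4 and NC9 and at 174, 146 and 161 CPM in MBZ_254, MBZ_257 and MBZ_259. NC10 again lay inside the range of the Zelnorm tumours. Hbb-bt (ENSMUSG00000073940, chromosome 7 from 103812524 to 103813996, minus strand) was the lowest of the 4, at 18.3, 73.8 and 26.7 CPM in the controls and 16.6, 9.25 and 18.2 CPM in the Zelnorm tumours. Its groups did not overlap, but only just: the lowest control was at 18.28 CPM (NC10) and the highest Zelnorm tumour at 18.17 CPM (MBZ_259).

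Summed over the 4 genes, globin made up a small part of the host RNA. Of the named mouse counts, NC10 held 0.0351% as globin (95% Wilson limits 0.0337 and 0.0366), NC4 0.178% (limits 0.175 and 0.181) and NC9 0.0534% (limits 0.0519 and 0.0549). Among the Zelnorm tumours MBZ_254 held 0.0431% (limits 0.0416 and 0.0446), MBZ_257 0.0299% (limits 0.0285 and 0.0313) and MBZ_259 0.0380% (limits 0.0368 and 0.0393). These intervals cover counting error only. NC4 lay 3.33-fold above the next library, and the other 5 libraries spanned a 1.79-fold range. The intervals of NC10 and MBZ_259 did not overlap, with the Zelnorm tumour above the control. The summed level averaged 878 ± 766 CPM over the controls, 374 ± 46.7 CPM over the treated tumours (SD, n = 3 each) and 439 ± 132 CPM over the controls without NC4 (n = 2).

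**Figure D1:**
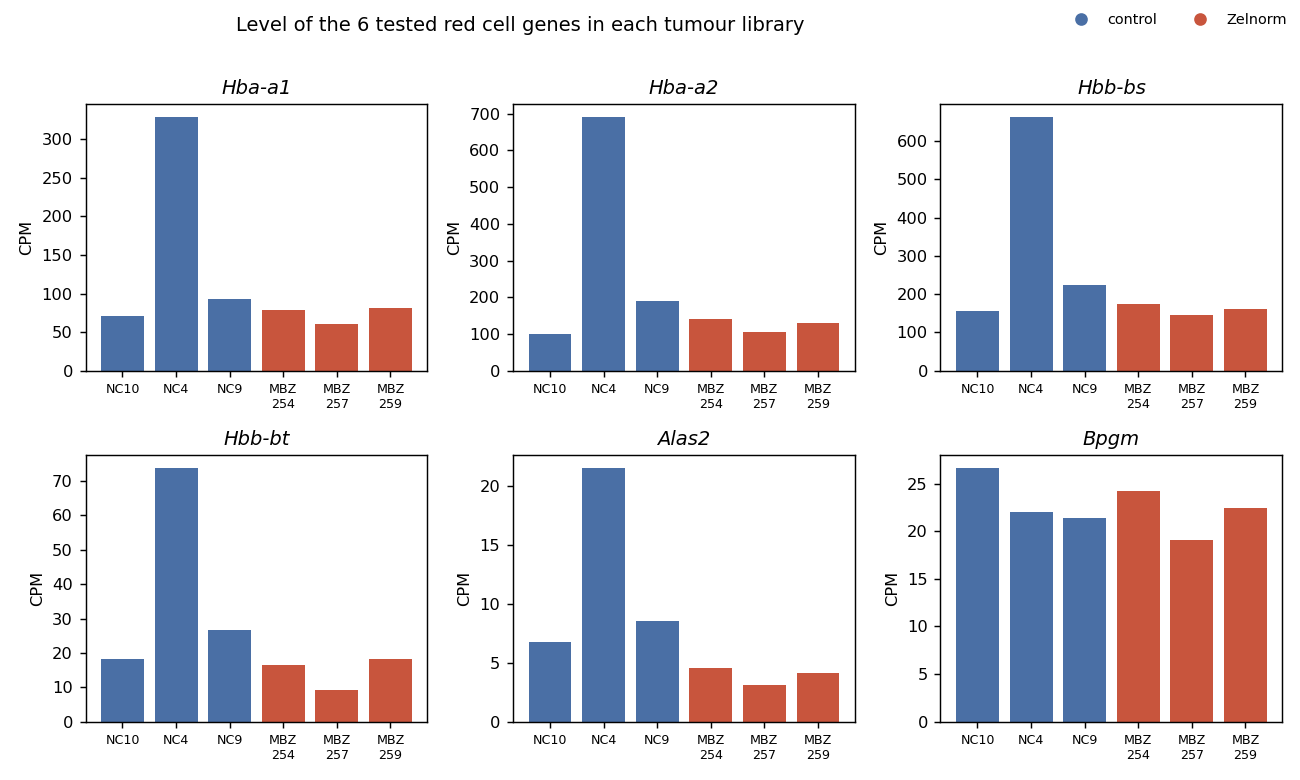
CPM of the 6 tested red cell genes (1 panel each, linear axes from 0) in the 3 control and 3 Zelnorm libraries, 1 bar per library. NC4 is the highest bar for the 4 globins and Alas2, whereas Bpgm lies between 19.1 and 26.6 CPM in all 6 libraries.

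Alas2 showed the same peak and a cleaner separation of the groups. Alas2 (ENSMUSG00000025270, chromosome X from 150547375 to 150570638, plus strand) had 42.5, 165.91 and 78.95 counts in NC10, NC4 and NC9 and 36.44, 17 and 35.73 counts in MBZ_254, MBZ_257 and MBZ_259. Its levels were 6.73, 21.5 and 8.58 CPM in the controls and 4.57, 3.15 and 4.11 CPM in the Zelnorm tumours. All 3 Zelnorm tumours lay below all 3 controls. NC4 was 2.51-fold above the next library, the smallest such gap of the 5 genes that peaked there. The largest was that of Hba-a2, at 3.63-fold.

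Slc4a1 RNA was at the limit of detection although globin RNA was not. Slc4a1 (ENSMUSG00000006574, chromosome 11 from 102348824 to 102366203, minus strand) had 1 count in NC10 and 0 in each of the other 5 libraries. A count of 0 allows a level of up to 3 counts, which corresponds to 0.326 to 0.555 CPM in these libraries. Per kilobase of its longest coding transcript (4545 bases) that limit is 0.0717 to 0.122 CPM, whereas Alas2 was at 1.54 to 10.6 CPM per kilobase. Slc4a1 could not be compared between the groups at this depth.

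Bpgm did not share the pattern. Bpgm (ENSMUSG00000038871, chromosome 6 from 34476207 to 34505613, plus strand) was at 26.6, 22.0 and 21.4 CPM in NC10, NC4 and NC9 and at 24.3, 19.1 and 22.4 CPM in MBZ_254, MBZ_257 and MBZ_259. The highest library was NC10, in which the summed globins were lowest among the controls. Its highest and lowest libraries differed 1.40-fold, against 4.54-fold for Hbb-bs, 5.48-fold for Hba-a1, 6.84-fold for Alas2, 6.91-fold for Hba-a2 and 7.97-fold for Hbb-bt.

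Per kilobase of the longest coding transcript, Hba-a2 and Hbb-bs were the most abundant of the 7 genes. Mean levels in the controls were 590.1 CPM per kilobase for Hba-a2, 553 for Hbb-bs, 235 for Hba-a1, 56.3 for Hbb-bt, 10.5 for Bpgm and 6.03 for Alas2. In the Zelnorm tumours they were 227, 255, 105, 20.9, 9.87 and 1.94. The first places were not fixed: Hbb-bs lay above Hba-a2 in 5 of 6 libraries and below it in NC4 (1055 against 1246 CPM per kilobase). Bpgm lay above Alas2 in 5 of 6 libraries and below it in NC4 (9.93 against 10.6). The order Hba-a2, Hba-a1, Hbb-bt, Bpgm held in 6 of 6 libraries, but the places within a pair rest on the uncertain division of reads.

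Zelnorm tumours were compared with controls in a fit over the 14459 tested mouse genes, with edgeR's quasi-likelihood test and Benjamini-Hochberg adjustment. None of the 6 tested red cell genes passed, 0 of 6 at an adjusted p under 0.05, as for the table as a whole (0% of tested genes called). DESeq2 and limma-voom also called 0 of the 6. At an unadjusted p under 0.05 edgeR had 2 (Hbb-bt and Alas2), DESeq2 4 and limma-voom 1, and over all tested genes edgeR had 1.75%. All 6 fold changes were below 0, where 46.1% of tested genes were, with a median log2 fold change of -1.27 against 0.02 over all tested genes. Hbb-bt and Alas2, 2 of 6, had all 3 Zelnorm tumours below all 3 controls, which held for 3.0% of tested genes.

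Each fold change is the log2 ratio of Zelnorm to control and carries its standard error (SE). Alas2 had the largest, -1.63 (SE 0.46, edgeR adjusted p = 1.00), and averaged 12.3 ± 8.05 CPM over the controls and 3.94 ± 0.73 CPM over the treated tumours. Hbb-bt had -1.42 (SE 0.51), Hba-a2 -1.38 (SE 0.62), Hba-a1 -1.16 (SE 0.53) and Hbb-bs -1.12 (SE 0.49). For these 4 globins the adjusted p of edgeR was 1.00 and the unadjusted p ran from 0.024 to 0.061. Summing each pair before the fit gave -1.30 for the alpha pair and -1.14 for the beta pair. Bpgm was at 23.4 ± 2.85 and 21.9 ± 2.64 CPM (log2 -0.09, SE 0.17).

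The globin fold changes rested on NC4. Without NC4 the log2 fold change of Hba-a1 was -0.16, of Hba-a2 -0.21 and of Hbb-bs -0.24. Those of Hbb-bt (-0.61) and Alas2 (-0.95) were also nearer 0, and that of Bpgm was -0.13. Without NC10, the control with the least globin, they were larger: -1.54 for Hba-a1, -1.83 for Hba-a2, -1.49 for Hbb-bs, -1.78 for Hbb-bt and -1.94 for Alas2.

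**Figure D2:**
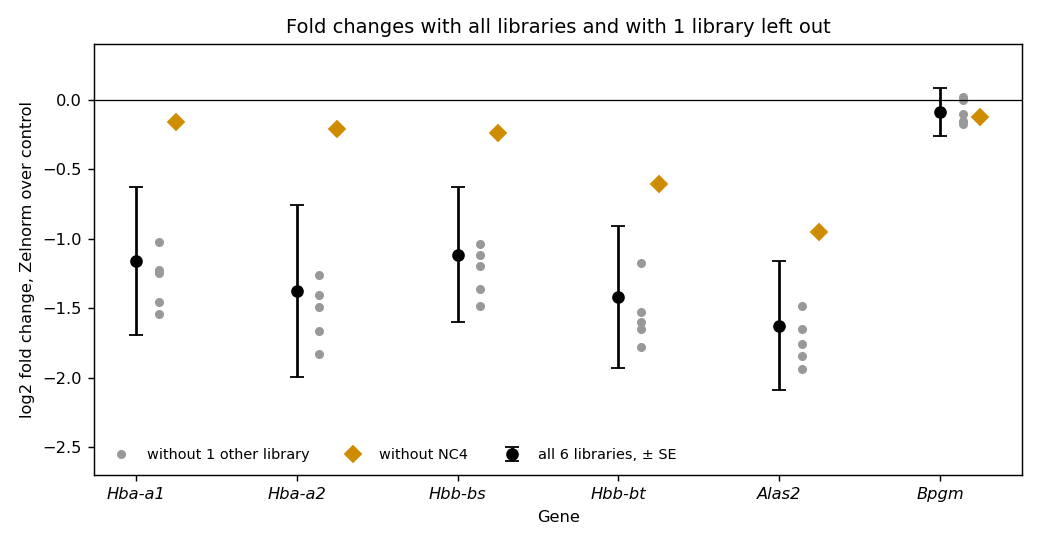
Log2 fold change of Zelnorm over control for the 6 tested genes with all 6 libraries (black, ± SE) and with 1 library left out (grey circles; orange diamonds without NC4). Without NC4 the values of Hba-a1, Hba-a2 and Hbb-bs lie at -0.16 to -0.24, against -1.12 to -1.38 with all libraries.

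Proportions within the red cell transcripts also varied between libraries. Alpha chain counts (Hba-a1 plus Hba-a2) were 49.5% of all globin counts in NC10 (95% Wilson limits 47.4 and 51.6), 58.1% in NC4 (limits 57.2 and 58.9) and 53.2% in NC9 (limits 51.8 and 54.6). The Zelnorm tumours MBZ_254, MBZ_257 and MBZ_259 had 53.5% (limits 51.8 and 55.2), 51.6% (limits 49.3 and 54.0) and 54.2% (limits 52.6 and 55.9). The interval of NC4 lay above that of each other library. The ratio of alpha to beta counts was 1.17 ± 0.20 in control and 1.13 ± 0.06 in Zelnorm tumours, a difference smaller than the spread between controls.

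The division within the pairs also varied between libraries. Hba-a1 took 41.5% of the alpha counts in NC10 (38.6 to 44.5), against 32.3% in NC4 (limits 31.2 and 33.3) and 32.8% in NC9 (limits 31.0 and 34.6), and 35.8% to 38.6% in the Zelnorm tumours. Hbb-bs took 89.3% to 90.0% of the beta counts in the controls. It took 91.3% in MBZ_254, 94.1% in MBZ_257 (92.2 to 95.5) and 89.9% in MBZ_259. NC4 lay inside the Zelnorm range, and NC10 and NC9 lay below it.

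Alas2 relative to globin was lower in each Zelnorm tumour than in each control. There were 19.7 Alas2 counts per 1000 globin counts in NC10 (limits 14.5 and 26.2), 12.3 in NC4 (limits 10.5 and 14.3) and 16.1 in NC9 (limits 12.9 and 20.03). In the Zelnorm tumours there were 11.3 (8.09 to 15.4), 9.80 (6.13 to 15.6) and 10.4 (7.60 to 14.5), all below the controls. The counting interval of each Zelnorm tumour overlapped that of each control. NC4, with the most Alas2 RNA of all libraries, had the least per globin count among the controls.

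**Figure D3:**
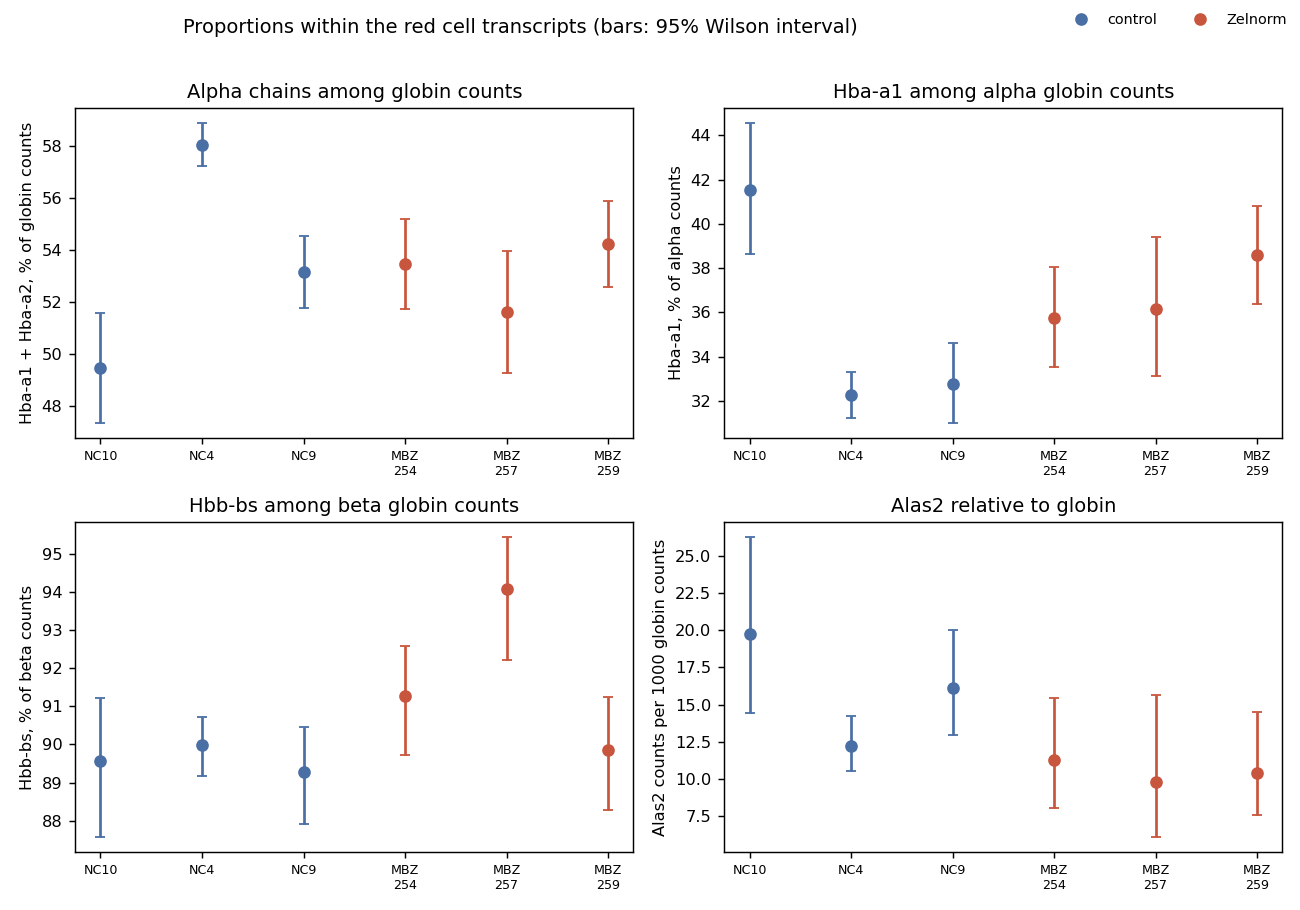
Proportions by library with 95% Wilson intervals, on axes that do not start at 0: alpha chains as a percentage of globin counts, Hba-a1 of alpha counts, Hbb-bs of beta counts, and Alas2 per 1000 globin counts. NC4 has the highest share of alpha chains (58.1%), and the 3 Zelnorm libraries have 9.80 to 11.3 Alas2 counts per 1000 globin counts against 12.3 to 19.7 in the controls.

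Promoter sequence is shown for 1 alpha gene, 1 beta gene and Alas2, since these peaked in the same library. The 130 bases before the RefSeq start are given 5′ to 3′ (RefSeq, GRCm38.p6). Capitals mark matches on either strand to 4 motifs. The GATA motif was searched as AGATAA, besides the spelling AGATAG, and with its first base changed as TGATAA, besides the spelling TGATAG. The other motifs were the letters CACCC, the letters CCAAT and, for the TATA box, the letters ATATAA. Overlapping matches were each counted. Erythroid regulators are known for these motifs: GATA1 binds the first and KLF1 the second. The Hba-a2 stretch lies at chr11:32296362-32296491 on the plus strand, that of Hbb-bs at chr7:103827929-103828058 on the minus strand and that of Alas2 at chrX:150547287-150547416 on the plus strand.
Hba-a2: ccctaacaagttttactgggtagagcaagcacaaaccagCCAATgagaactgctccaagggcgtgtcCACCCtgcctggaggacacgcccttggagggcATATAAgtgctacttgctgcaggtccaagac
Hbb-bs: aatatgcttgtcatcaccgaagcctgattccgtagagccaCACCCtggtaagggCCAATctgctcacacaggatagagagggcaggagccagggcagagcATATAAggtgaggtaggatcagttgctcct
Alas2: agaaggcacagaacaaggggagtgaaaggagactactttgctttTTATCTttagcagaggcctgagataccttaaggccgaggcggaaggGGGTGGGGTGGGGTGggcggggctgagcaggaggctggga

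Over the 250 bases before the start, the 4 globin genes each held matches to the CACCC, the CCAAT and the TATA box motifs. A GATA match lay in Hba-a1, Hba-a2, Hbb-bs and Alas2 but not in the window of Hbb-bt. Alas2 had 3 CACCC matches in a row on the opposite strand, printed as GGGTG. Bpgm had 3 CCAAT matches and none of the other motifs. Of 32851 promoter windows of the same length, 26.5% matched the GATA motif, 52.0% matched CACCC, 33.8% matched CCAAT and 9.10% matched the TATA box motif. The whole RefSeq windows, which are 300 bases long and run past the start, shared an unbroken run of 297 bases between Hba-a1 and Hba-a2 and one of 14 between Hbb-bs and Hbb-bt. A match describes these letters only and is not evidence of binding. Of the 7 genes 6 matched an entry, all but Slc4a1.

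Genes that mark nucleated red cell precursors were at or near 0. Gata1, the erythroid master regulator, had 0 counts in each of the 6 libraries. Klf1, the activator of beta globin transcription, had at most 2 counts in a library. Hemgn, an erythroid nuclear protein, had at most 2. The membrane genes Epb42 (protein 4.2), Rhag (the Rh-associated glycoprotein) and Kel (the Kell antigen), chosen after their values were seen, had 0 counts throughout. The 6 embryonic and minor globin genes Hbb-y, Hbb-bh1, Hbb-bh2, Hba-x, Hbq1a and Hbq1b also had 0 counts in every library, with the same upper limit of 0.326 to 0.555 CPM. Tfrc, the transferrin receptor for iron uptake, which dividing cells of many types use, was at 22.6 to 25.9 CPM in controls and 18.8 to 25.6 CPM in Zelnorm tumours.

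Other genes with a known part in red cells did not follow the globins as lists. Of 12 other genes for haem synthesis and its transport steps, all were tested, 6 lay above and 6 below a log2 fold change of 0, and 0 passed. Fech, which inserts iron into haem, was at 57.6 CPM in NC4 and 50.3 to 59.3 CPM in the other libraries. Alas1, the form of the first enzyme used outside red cells, was at 62.3 CPM in NC4 and 37.7 to 56.6 CPM elsewhere. Urod and Slc25a37, the mitochondrial iron carrier mitoferrin, had log2 fold changes of 0.00 (SE 0.18) and 0.09 (SE 0.15). Of 11 erythroid regulators 7 were tested, 3 above and 4 below 0, and 0 passed. The best expressed were Ldb1, Lmo2, Tfrc and Zfpm1, which other host cells also express.

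Of 16 red cell membrane genes 9 were tested, 5 above and 4 below 0, and 0 passed, with Aqp1, Epb41, Dmtn and Gypc as the best expressed. Aqp1, a water channel of red cells and of vessel walls, was the most abundant, at 442 CPM in NC4, 257 and 275 in the other controls and 274 to 371 in the Zelnorm tumours. Ank1, whose products serve red cells and muscle and which was chosen after its values were seen, was highest in MBZ_259 (24.8 CPM, against 8.94 in NC4), the library with the most skeletal muscle RNA. Of 9 late erythroid genes 4 were tested, all above 0 (median log2 fold change 0.11), and 0 passed; the best expressed were Xpo7, Mkrn1, Bnip3l and Ube2o. Of 7 red cell enzymes 5 were tested, 1 above and 4 below 0, and 0 passed, with Gpx1, Cat, Prdx2 and Blvrb as the best expressed. Cat, catalase, was at 62.7 to 67.5 CPM in controls and 55.9 to 62.1 CPM in Zelnorm tumours.

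Haptoglobin was, like the globins, highest in NC4. Of 14 genes for haem and iron handling 12 were tested, 10 above and 2 below 0 (median log2 fold change 0.11), and 0 passed. Of those tested, 3 were highest in NC4: Hp, Trf and Cd163. Cd163, chosen after its values were seen, was at 99.8 CPM in NC4 and 1.48 to 61.9 CPM elsewhere. Hp, which encodes haptoglobin, the plasma protein that binds free haemoglobin, was at 65.7, 309.7 and 125 CPM in NC10, NC4 and NC9 and at 75.8, 58.1 and 17.3 CPM in the Zelnorm tumours (log2 -1.73, SE 0.66, edgeR adjusted p = 1.00). The ferritin genes Fth1 and Ftl1 had log2 fold changes of 0.08 (SE 0.23) and 0.11 (SE 0.22), and Trf, transferrin, of 0.00 (SE 0.19).

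Markers of other blood and vessel cells were read beside the globins. Platelet genes were scarce: 3 of 12 were tested, and their summed level was 20.5 to 31.4 CPM in controls and 18.9 to 32.4 CPM in Zelnorm tumours, with MBZ_254 above NC4. Pf4, a chemokine of platelets that macrophages also express, was the most abundant at 21.9 CPM in NC4 and 14.99 to 25.0 CPM in the other libraries. The platelet receptor genes Gp1bb, Itga2b and Clec1b were each at 2.98 CPM or less in every library. Of 13 neutrophil genes 6 were tested, 1 above and 5 below a log2 fold change of 0, and 0 passed. Of those tested, 4 were highest in NC4. Ly6g, chosen after its values were seen, had 0 counts. S100a8, a calprotectin subunit, was at 8.04 CPM in NC4 and 0.74 to 2.29 CPM in the other libraries, and S100a9 at 9.98 CPM against 3.33 to 7.88. Csf3r, the receptor for the growth factor G-CSF, was better expressed than both and was not highest in NC4, at 30.85 CPM there against 34.6 in MBZ_254 and 26.2 to 30.8 in the others. The neutrophil list as a whole was highest in MBZ_259 (285 CPM, against 225 in NC4), where Mmp9 made up 246 CPM.

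Endothelial genes were higher in NC4 too, by less. Of 15 tested 12 were highest in NC4, and their summed level was 1509, 2269 and 1642 CPM in NC10, NC4 and NC9 and 2005, 1243 and 1751 CPM in the Zelnorm tumours. Pecam1, an adhesion molecule of vessel lining, was at 379 CPM in NC4 and 197 to 344 CPM elsewhere. Cdh5, the adhesion molecule of endothelial junctions, Plvap, a protein of vessel wall pores, and Eng, a TGF-beta co-receptor, were highest in NC4 too, at 348, 324 and 245 CPM. Set against the endothelial counts, there were 0.229, 0.774 and 0.325 globin counts per endothelial count in the controls and 0.204, 0.258 and 0.224 in the Zelnorm tumours. NC4 remained the highest, and the controls and Zelnorm tumours still overlapped.

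Fat cell genes were, like the globins, highest in NC4. Of 9 adipocyte genes 8 were tested, all with fold changes below 0 (median log2 -2.0007); 0 passed in edgeR, and 8 had an unadjusted p under 0.05. Cfd, which encodes the adipokine adipsin, stood at a log2 ratio of -2.47 (SE 0.56), and Car3, a carbonic anhydrase abundant in fat and muscle, at -1.71 (SE 0.57). Lipe, the hormone-sensitive lipase, stood at -0.94 (SE 0.28), and Plin4, which coats lipid droplets, at -1.32 (SE 0.40). The summed level was 268, 831 and 541 CPM in NC10, NC4 and NC9 and 156, 109 and 184 CPM in MBZ_254, MBZ_257 and MBZ_259. NC4 was the highest and MBZ_257 the lowest library for this list, as for the summed globins, and all 8 genes peaked in NC4. In NC10 the summed adipocyte level lay above every Zelnorm tumour while its summed globin level did not. Of the single genes, Car3 was lower in NC10 (116 CPM) than in MBZ_259 (142 CPM). Skeletal muscle genes peaked in MBZ_259 instead, at 7395 CPM against 3001 CPM in NC4, with Acta1, Myh4, Atp2a1 and Ckm as the best expressed. The part of vessel, fat or muscle content in the globin values was not tested.

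**Figure D4:**
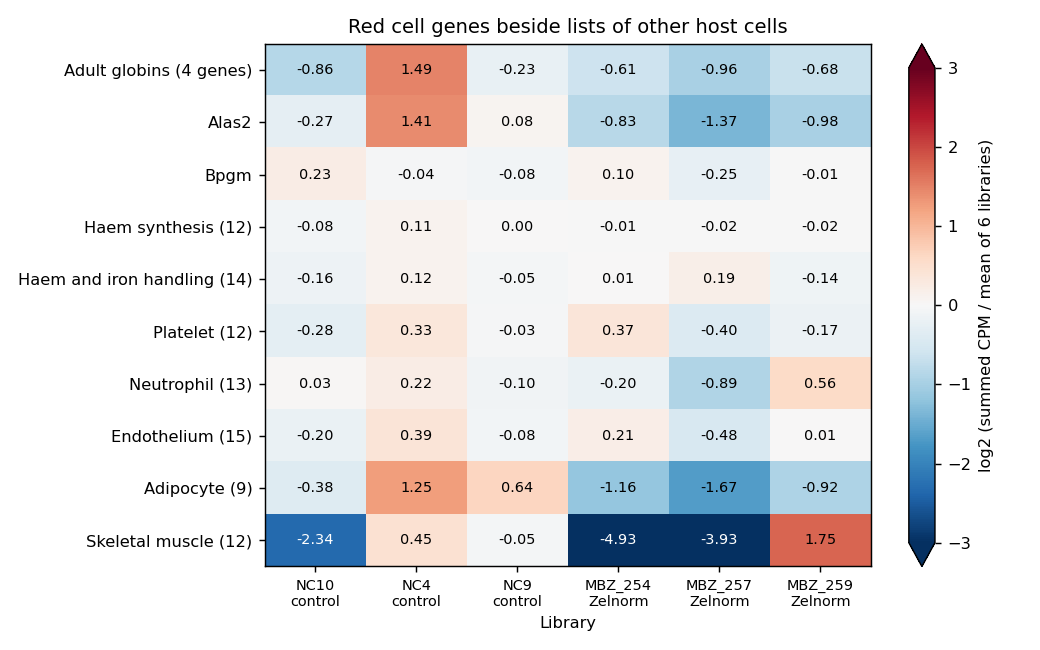
Log2 of the summed CPM of each gene or list over its mean of the 6 libraries (number of genes in brackets), with the value in each cell and the colours limited to ±3. NC4 stands at 1.49 for the adult globins, 1.41 for Alas2 and 1.25 for adipocyte genes, and at 0.39 for endothelium and -0.04 for Bpgm.

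A peak in NC4 of this size was rare among host genes. NC4 was the highest library for 5 of the 6 tested red cell genes and for 18.3% of tested mouse genes. Only 24 of 14449 tested symbols (0.166%) lay at least as far above the next library in NC4 as Hbb-bs did (2.97-fold). Of these, 3 were globins: Hba-a2, Hba-a1 and Hbb-bs itself. Hbb-bt (2.76-fold) and Alas2 (2.51-fold) lay below that gap. The gap was set by the value of a red cell gene, so the share is a description only.

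Likeness to the summed globins was measured as the root mean square difference between log2 CPM values, each centred on its mean over the 6 libraries. The 4 globins are part of that sum, so their own values of 0.09 (Hba-a1), 0.09 (Hbb-bs), 0.13 (Hba-a2) and 0.28 (Hbb-bt) are a description only. Alas2, which is not part of it, was at 0.34, and Bpgm at 0.86, beside a median of 12845 other genes (0.87). This contrast rested on NC4: without that library Alas2 was at 0.36 and Bpgm at 0.30. The 10 other genes nearest to the globins were Ppl (0.21), Srpx (0.26), Ces1d (0.26), Maob (0.26), Ace (0.27), Zbtb16 (0.31), Procr (0.32), Npr1 (0.33), Glt8d2 (0.33) and Plin4 (0.33). Of the lists above they include 1 gene, the adipocyte gene Plin4. Ace, angiotensin-converting enzyme, was at 348 CPM in NC4 and 65.5 to 123 CPM in the other libraries. Ppl, which encodes the desmosomal protein periplakin, was at 11.8 CPM in NC4 and 2.41 to 4.89 CPM elsewhere. It had far more counts for its symbol in the human table (1619 to 2304). Procr too had more counts in the human than in the mouse table in 6 of 6 libraries. The same held for Plin4 in 4 libraries and for Maob and Glt8d2 in 2 each. Without NC4, 0 of these 10 genes were among the nearest 10. Among the red cell genes, Hba-a1 and Hbb-bs were the closest pair (0.11) and Hbb-bt was nearer to Alas2 (0.22) than to Hbb-bs (0.31).

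The human table was read for the same symbols, since the tumour cells are human. Globin symbols were almost absent there: HBA1, HBA2, HBB, HBZ and HBE1 together had 9, 3 and 0 counts in NC10, NC4 and NC9 and 9, 5 and 6 counts in the Zelnorm tumours, and HBD, HBG1 and HBG2 had 0. In NC4 that was 0.0221% of the globin counts of both tables. ALAS2 had 4, 17 and 5 counts in the controls and 0, 1 and 2 in the Zelnorm tumours, so NC4 was the highest library in the human table as well. These made up 9.29% of the ALAS2 and Alas2 counts in NC4 (95% Wilson interval 5.88 to 14.4) and 0% to 8.60% in the other libraries. Whether they are reads of tumour cells or of the host was not tested.

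BPGM, unlike the globins, had most of its counts in the human table. It was at 14.6, 13.95 and 14.8 CPM of the human table in NC10, NC4 and NC9 and at 15.5, 15.8 and 14.4 CPM in MBZ_254, MBZ_257 and MBZ_259. Its log2 fold change was 0.08 (SE 0.14, edgeR adjusted p = 1.00 over 18820 human genes, of which 0% were called). The human table held 66.7% to 83.2% of the counts of this symbol, against 76.6% to 84.9% of all counts. Its share of the globin counts was 0% to 0.416%. Human SLC4A1 had at most 4.91 counts in a library.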

How the data were processed

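RNA of 6 tumours was sequenced after TruSeq library preparation, per the labels' protocols. The authors deposited a mouse and a human table of estimated counts for each gene. The builds GRCm38 and GRCh38 and the tools StringTie, HISAT2, edgeR and DESeq2 are named, without roles, per the submitters' processing notes. How reads were divided between species was not stated. Among values above 0, 26.5% (mouse) and 37.9% (human) were not whole, so they were rounded for the tests planned for counts. Columns carry the group prefix but no replicate number. Rows without a name (856 mouse, 574 human; 0.317% to 0.518% of a library's counts) were left out.

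The comparison of groups was fitted per table by edgeR 4.0.16 under R 4.3.3 (filterByExpr, TMM, glmQLFTest, two-sided, Benjamini-Hochberg). DESeq2 1.42.0 and limma-voom (limma 3.58.1) were alternatives, with other scalings, no filter, summed copies and each library left out. The fits were tested on simulated data. Likeness used log2 CPM with a prior count of 2. Mouse identifiers matched GENCODE vM21. Members and lists were chosen with earlier results of these data known. Named, by rule, are all members, the 4 best expressed genes of each list, 4 precursor markers and the 10 genes most like the summed globins. Of the other precursor markers of the rule, 1, also a late erythroid gene, was not analysed here and 1 is not reported here. All 6 embryonic and minor globin genes are named, since they tied at 0 counts. Others are said to be chosen after their values were seen.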

Additional observations from a re-analysis of the deposited data

How the results depend on the processing

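No paired analysis was possible because the columns carry none of the replicate numbers of the labels. None of the 7 genes was called under any alternative run. The number of mouse genes called was 0 in edgeR, 6 with DESeq2, 2 without the count filter and 0 with each library left out; in the human table DESeq2 called 1, against 0. The globin and Alas2 fold changes stayed below 0 throughout, from -1.94 (Alas2 without NC10) to -0.16 (Hba-a1 without NC4). Bpgm ran from -0.17 to 0.02 with 1 library left out, above 0 without NC10 (0.00014) or MBZ_257 (0.015). Without NC4, 0 of the 10 genes most like the globins were shared, an alternative chosen after seeing the data. On the log2 scale the Zelnorm mean of the summed globin share over the control mean was -1.26. It ran from -1.64 to -0.26 with 1 library left out, the last without NC4. It was -1.36 relative to the counts of both tables and -0.95 relative to endothelial counts. The cause of the high values in NC4 was not tested. The lowest counts, 17 for Alas2 in MBZ_257, limit the precision of its ratio to globin.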

Other observations

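The 8 genes that stood farthest above the next library in NC4 were looked up after their values were seen. C7, a complement component, was at 81.5 CPM in NC4 and at most 5.60 CPM in another library, Agt, angiotensinogen, at 31.6 against 3.43 CPM, Il1r2, a decoy receptor of interleukin-1, at 16.6 against 2.41 CPM, and Gdf10, a secreted growth factor, at 43.3 against 6.84 CPM. Col6a6, a collagen VI chain, was at 56.6 against 10.5 CPM and Serpina3c, a serine protease inhibitor, at 13.9 against 2.61 CPM. The major urinary protein genes Mup9 and Mup22 were at 58.1 and 64.2 CPM against 9.94 and 12.3 CPM; they belong to a family of near-identical copies, so that their single values are uncertain. None of these 8 genes is in a red cell list.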
